A study of Mus musculus with 13 samples.

Results

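Stab1 and 7 other genes that are widely used to mark macrophages at the borders of the brain, Mrc1, Pf4, Cd163, Lyve1, Ms4a7, Cbr2 and Clec12a, were followed across single sorted microglia of mice on control diet or high-fat diet (HFD). These are 8 of the 17280 genes listed in the authors' filtered count table, and they form a list of names rather than a set cut by a measured value. Single CD45lo, CD11b+ cells of male C57BL/6J mice had been sorted into 13 plates of 192 wells and sequenced by CEL-Seq2, a plate method in which wells carry barcodes and transcripts carry unique molecular identifiers (UMIs), random tags that keep PCR copies from being counted again. The question asked of the genes was which of them are read in P2ry12-positive microglia, which are read together in the same well, and whether these shares move with the plate or with the length of HFD.

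The labels give the strain and no genetic change, the same gate was described for all cells, and the groups are set apart by diet. By the deposited list of wells, 722 of the 1617 wells analysed came from control mice, 161 from mice on HFD for 1 day, 121 for 3 days, 172 for 1 week, 128 for 4 weeks, 82 for 9 weeks and 231 for 16 weeks. The sample labels state 3 days of HFD throughout, so the lengths rest on that list. Age and littermates were not given in the sources used here, apart from weeks carried in some well names. The methods describe the sorted cells as hypothalamic, while the labels name several brain regions. Wells with the same replicate identifier on plates linked by it were taken as 1 replicate, which gave 19 control replicates, 6 at 1 day, 4 at 3 days, 6 at 1 week, 3 at 4 weeks, 2 at 9 weeks and 5 at 16 weeks. The sources used here do not tie each identifier to 1 mouse, so p-values cannot be taken to measure the spread between mice. Permutation tests used these identifiers. The edgeR fits used sums per identifier and plate, so some identifiers entered more than once.

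The brain's resident macrophages fall into microglia, which lie in the parenchyma, and border macrophages of the meninges, the perivascular spaces and the choroid plexus. Microglia are recognised by P2ry12, the purinergic receptor that steers their processes, together with Tmem119, Siglech and Sall1. Border macrophages carry scavenger and lectin receptors instead, and part of them present antigen on MHC class II. Most border macrophages carry more surface CD45 than microglia, so a CD45lo gate tends to leave them out. Among the 8 genes, Stab1 encodes stabilin-1, a scavenger receptor that takes up oxidised lipoproteins and matrix debris. Mrc1 encodes the mannose receptor CD206, Cd163 the receptor for haemoglobin bound to haptoglobin, and Lyve1 a receptor for hyaluronan that lymphatic endothelium also carries. Clec12a encodes an inhibitory C-type lectin of myeloid cells, Ms4a7 a membrane-spanning protein of the 4A family, Cbr2 a carbonyl reductase, and Pf4 a CXC chemokine best known from platelets.

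The results turn on Stab1, which was read in most wells, and on Mrc1 and Pf4, which were read in few wells and shared 6 of them. The 250 bases before the annotated start of these 3 genes are printed 5′ to 3′ on the strand of the gene, from RefSeq on GRCm38.p6. Stab1 lies on the minus strand, with this window at chr14:31168642-31168891. Mrc1 lies on the plus strand, with the window at chr2:14229164-14229413, and Pf4 on the plus strand at chr5:90772185-90772434. Capitals mark a match to GAGGAAGT, a motif of PU.1, the factor of the myeloid lineage, which here lies on the opposite strand.
Stab1: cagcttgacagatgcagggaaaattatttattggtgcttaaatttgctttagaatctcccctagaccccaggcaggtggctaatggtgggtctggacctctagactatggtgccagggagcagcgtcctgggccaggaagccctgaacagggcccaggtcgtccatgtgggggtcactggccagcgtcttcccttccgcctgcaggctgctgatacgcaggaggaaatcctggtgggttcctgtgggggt
Mrc1: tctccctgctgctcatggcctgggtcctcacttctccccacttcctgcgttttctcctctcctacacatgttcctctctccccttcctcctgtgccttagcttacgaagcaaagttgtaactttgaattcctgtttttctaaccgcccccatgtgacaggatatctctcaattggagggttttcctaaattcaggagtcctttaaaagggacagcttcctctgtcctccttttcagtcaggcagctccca
Pf4: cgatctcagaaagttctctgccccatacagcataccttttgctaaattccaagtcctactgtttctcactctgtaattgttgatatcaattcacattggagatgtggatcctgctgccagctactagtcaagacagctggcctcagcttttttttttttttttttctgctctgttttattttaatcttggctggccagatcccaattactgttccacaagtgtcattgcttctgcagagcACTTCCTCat
The Pf4 match begins 10 bases before the start of the gene. The motif was searched on both strands, and 802 of 32851 promoters of this length held it (2.44%). Of the 8 genes, 7 had such a promoter in the reference, Lyve1 being the one without, and Pf4 alone among them held the PU.1 letters. TGCTGAC, a core of the MAF recognition element, was held by 3.81% of all promoters, and TCACGTGA, an E box of MITF and TFE3 that reads the same on both strands, by 0.785%. Neither of these letter runs was in a promoter of the 7 genes.

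In the GENCODE M21 annotation of GRCm38, Stab1 covers chr14:31139013-31168641 on the minus strand. Its last 112 bases overlap the end of Nt5dc2, a gene of the opposite strand at chr14:31131053-31139124. Whether reads were counted by strand is not stated in the sources used here, so reads within those bases could be given to either gene. Nt5dc2 itself had a UMI in 64 of the 1617 wells (3.96%) and a level of 14.3 CPM (UMIs per 1000000 UMIs), far under that of Stab1. Mrc1 lies at chr2:14229392-14332057 and holds the microRNA gene Mir511 within it. Pf4 lies at chr5:90772435-90773383, Cd163 at chr6:124304656-124330527 and Clec12a at chr6:129342691-129365303, each on the plus strand. Lyve1 at chr7:110850607-110863239, Cbr2 at chr11:120729489-120732114 and Ms4a7 at chr19:11321039-11336146 lie on the minus strand.

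Wells were analysed where they held at least 1500 transcripts over the filtered genes, which left 1617 of 2496 wells. They held 1506 to 19711 UMIs each, with a median of 2830, and 5164588 in all. P2ry12 had a UMI in 1602 of these wells (99.1%) at 3701 CPM, so this marker of microglia was present in nearly all of them. All 15 genes of a list of homeostatic microglia were read in at least 1% of wells. The 3 measured neuron genes also passed that bar, so it does not tell cell types apart. Shares of wells depend on depth, so they were also given for every well thinned to 1500 UMIs, as the mean over all possible draws. Intervals are exact binomial 95% intervals and cover counting error only.

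Plates 4 and 5 stood apart from the other 11, and the main counts, shares and tests they touch are also given without them. They held 197 wells with a median of 4546 UMIs, against 2730 in the other 1420 wells. A list of MHC class II genes summed to 4983 CPM on these plates and 163 CPM on the others. The monocyte list reached 238 and 25.2 CPM, and S100a9, the only neutrophil gene measured, 1051 and 0.942 CPM. Single wells of these plates carried much of both. A single well held 146 UMIs of the monocyte list, and the well of barcode 178 on plate 5 held 867 UMIs of S100a9. The list of homeostatic microglia summed to 69207 and 70522 CPM. On these plates the same well barcodes also shared a part of the rare transcripts. All 13 plates use the same 192 barcodes. Genes read in at most 5% of wells were taken where a well of plate 5 held at least 10 of their UMIs. Per 100 such UMIs, plate 4 had 5.37 at the same barcode, against 0.315 at the other barcodes. Of its 71 UMIs at the same barcode, 56 were S100a9 in the well of barcode 178. In the opposite direction the figure was 137 per 100, most of it S100a9 in the well of barcode 178. In the other 34 ordered pairs of plates that could be examined it was at most 0.522 per 100. From plate 5, 46.4% of these genes and wells were seen again at the same barcode of plate 4. The opposite direction gave 14.7%, and the other pairs at most 14.3%. In the well of barcode 122, Mrc1 had 13 UMIs on plate 5 and 1 on plate 4, and H2-Aa, an MHC class II chain, had 147 and 17. In that of barcode 178, S100a9 had 867 on plate 5 and 56 on plate 4. Whether single UMIs of the rarer genes on these plates are transcripts of that cell is therefore not known, and the cause was not tested.

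Stab1 was the only one of the 8 genes that most microglia carried. It had a UMI in 1074 of the 1617 wells (66.4%, 64.1 to 68.7), on all 13 plates and in all 45 replicates, with 2279 UMIs and a level of 441 CPM. Among the P2ry12-positive wells it was read in 1067 of 1602 (66.6%, 64.2 to 68.9), and among the 15 wells without P2ry12 in 7 (46.7%, 21.3 to 73.4). With at least 3 UMIs of P2ry12 required, the count was 1029 of 1527 wells, and without plates 4 and 5 it was 944 of 1409. After thinning to 1500 UMIs the share over all wells was 45.5%.

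The number of Stab1 UMIs in a well was low throughout. There was none in 543 wells, 1 in 491, 2 in 272, 3 in 155 and more in the remaining wells, up to 13 UMIs. At least 2 UMIs were present in 583 wells (36.1%). Over 4 equal bins of rising depth, the share of wells with Stab1 was 51.7%, 65.1%, 70.8% and 78.0%, while the level was 456, 481, 475 and 395 CPM. The share thus followed the number of UMIs read and the level did not rise with it. Over 4 equal bins of rising P2ry12 CPM, the Stab1 level was 421, 411, 472 and 458 CPM, so wells low and high in P2ry12 had similar levels. In the 336 wells with fewer than 200 transcripts Stab1 was at 221 CPM, from 7 UMIs, and in the 102 wells with 1000 to 1500 transcripts at 346 CPM.

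The other 7 genes were read in few wells each. Mrc1 had a UMI in 70 wells (4.33%, 3.39 to 5.44), with 135 UMIs, 26.1 CPM and up to 13 UMIs in a well. Clec12a was read in 36 wells (2.23%, 1.56 to 3.07), with at most 6 UMIs in a well. Ms4a7 was read in 32 wells (1.98%, 1.36 to 2.78), with at most 5 UMIs. Of these 3 genes, Mrc1 was the most widespread, with wells on 12 plates and in 29 replicates. Lyve1 was read in 26 wells (1.61%, 1.05 to 2.35) on 12 plates, never above 2 UMIs. Cd163 was read in 14 wells (0.866%, 0.474 to 1.45), always with 1 UMI. Pf4 was read in 11 wells (0.680%, 0.340 to 1.21), but with up to 7 UMIs. Cbr2 was the rarest, with 7 wells (0.433%, 0.174 to 0.890) and at most 4 UMIs. The share after thinning ran from 2.44% for Mrc1 to 0.232% for Cbr2.

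**Figure D1:**
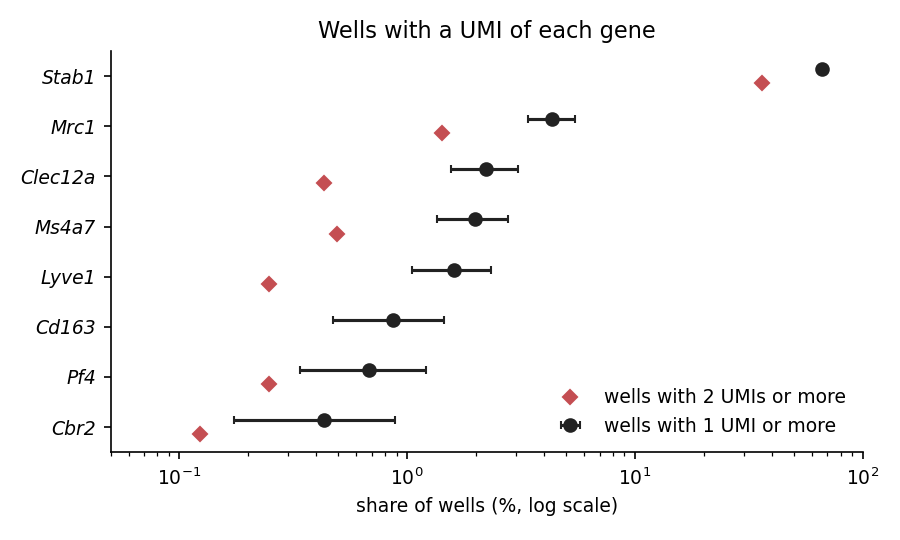
Share of wells with at least 1 UMI of each gene (x axis, %, log scale; circles, with exact binomial 95% intervals) and with at least 2 UMIs (diamonds), over 1617 wells. Stab1 stands at 66.4% and 36.1%, while the other 7 genes lie between 0.433% and 4.33% for at least 1 UMI, and Cd163 has no diamond since it never had 2.

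Almost all wells with these 7 genes were P2ry12-positive, as were almost all wells. In the 1602 P2ry12-positive wells Mrc1 was read in 66 (4.12%), Clec12a in 35 (2.18%), Ms4a7 in 29 (1.81%), Lyve1 in 25 (1.56%), Cd163 in 14 (0.874%), Pf4 in 10 (0.624%) and Cbr2 in 6 (0.375%). In the 15 wells without P2ry12, Mrc1 was read in 4 and Ms4a7 in 3. Free RNA can give such UMIs, so the shares were read beside 23 measured markers of neurons, glia, vessels, fibroblasts and other cells. Those genes had a UMI in 0.433% to 41.6% of the same wells, with a median of 1.98%. The highest value was that of Slc1a3, the glutamate transporter of astrocytes, and the next was 11.1%. Slc1a3 thus stood apart in share, and the source of its UMIs was not tested. Of the 23 genes, 7 had a share above that of Mrc1, 10 above Clec12a, 13 above Ms4a7, 14 above Lyve1, 16 above Cd163, 18 above Pf4 and 19 above Cbr2. Mrc1 was thus above 16 of the 23 genes, while Cbr2 was level with the lowest. With Slc1a3 left out, each of these counts above a gene is lower by 1 and the shares of all 7 genes still lay within the range of the rest, and whether their single UMIs came from microglia was not tested. The number of UMIs in single wells differed from that: 20 of the 23 genes never exceeded 5 UMIs in a well, whereas Mrc1 reached 13 and Pf4 7.

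Stab1 was set beside other scavenger and endocytic receptors, of which 17 of the 19 on the list were measured and 15 were read in at least 1% of wells. Trem2, the lipid receptor of microglia, was read in 91.2% of wells at 1207 CPM, and Mertk, a receptor for the uptake of dying cells, in 87.5% at 952 CPM. Lrp1 was read in 75.3% at 553 CPM and Cd68, a lysosomal glycoprotein, in 64.9% at 442 CPM, which put Stab1 next to Cd68. UMIs here stand for 3′ ends, so these levels do not scale with transcript length. Stab2, the paralog of Stab1 in sinusoidal endothelium, was read in 34 wells (2.10%) at 6.78 CPM. Msr1, the macrophage scavenger receptor, was read in 1.30% of wells. Of 20 other genes named for border macrophages, 13 were measured and 10 were read in at least 1% of wells. Maf, a transcription factor shared by tissue macrophages, was read in 92.3% of wells at 1316 CPM. The iron exporter Slc40a1 was read in 31.8%, Ms4a6b in 27.0%, Ms4a6d in 25.9%, Ms4a6c in 10.9% and the endocytic adaptor Dab2 in 8.84%. Genes named for border macrophages thus spanned the whole range, from nearly every well to a few.

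Most wells held none of the 7 rarer genes. None was read in 1463 wells, 1 gene in 125, 2 genes in 17, 3 in 11 and 4 in 1 well. At least 2 were read in 29 wells (1.79%, 1.20 to 2.57), of which 20 lay on plates 4 and 5 (20 of 197 wells, 10.2%) and 9 on the other plates (9 of 1420 wells, 0.634%). In 106 wells the 7 genes summed to a single UMI, and in 12 wells (0.742%) to at least 5.

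Wells with Mrc1 held Pf4, Ms4a7, Clec12a and, over all plates, Cd163 in larger shares than wells without it. The share of Stab1 was alike in both, and that of Lyve1 in wells with Mrc1 rests on 1 well. Of the 70 wells with Mrc1, 12 also held Ms4a7 (17.1%), against 20 of the 1547 wells without Mrc1 (1.29%). Pf4 was read in 6 of the Mrc1 wells (8.57%) and in 0.323% of the others, and Clec12a in 7 of 70 and 1.87%. Cd163 was read in 3 of the Mrc1 wells (4.29%) and in 0.711% of the others. Lyve1 was read in 1 of the Mrc1 wells (1.43%) and in 1.62% of the others, and Cbr2 in 1 (1.43%) and 0.388%. Stab1 was read in 48 of the Mrc1 wells (68.6%) and in 66.3% of the others. Seen from the smaller lists, 6 of the 11 wells with Pf4 held Mrc1 (54.5%), as did 12 of the 32 wells with Ms4a7 (37.5%) and 1 of the 26 with Lyve1. The wells with Mrc1 were deeper, with a median of 3578 UMIs against 2805, and their depth was not matched in these counts. Without plates 4 and 5 the wells with Mrc1 numbered 45, and Ms4a7 was read in 5 of them (11.1%) against 0.873% of the other wells, Pf4 in 2 (4.44%) against 0.218% and Clec12a in 2 (4.44%) against 0.945%. Cd163 and Lyve1 were then in none of the 45 wells, which allows a share of up to 6.67%. Mrc1 itself was read in 4.47% of wells with Stab1 and in 4.05% of wells without it. All 7 wells with Cbr2 and 6 of the 14 with Cd163 held Stab1.

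**Figure D2:**
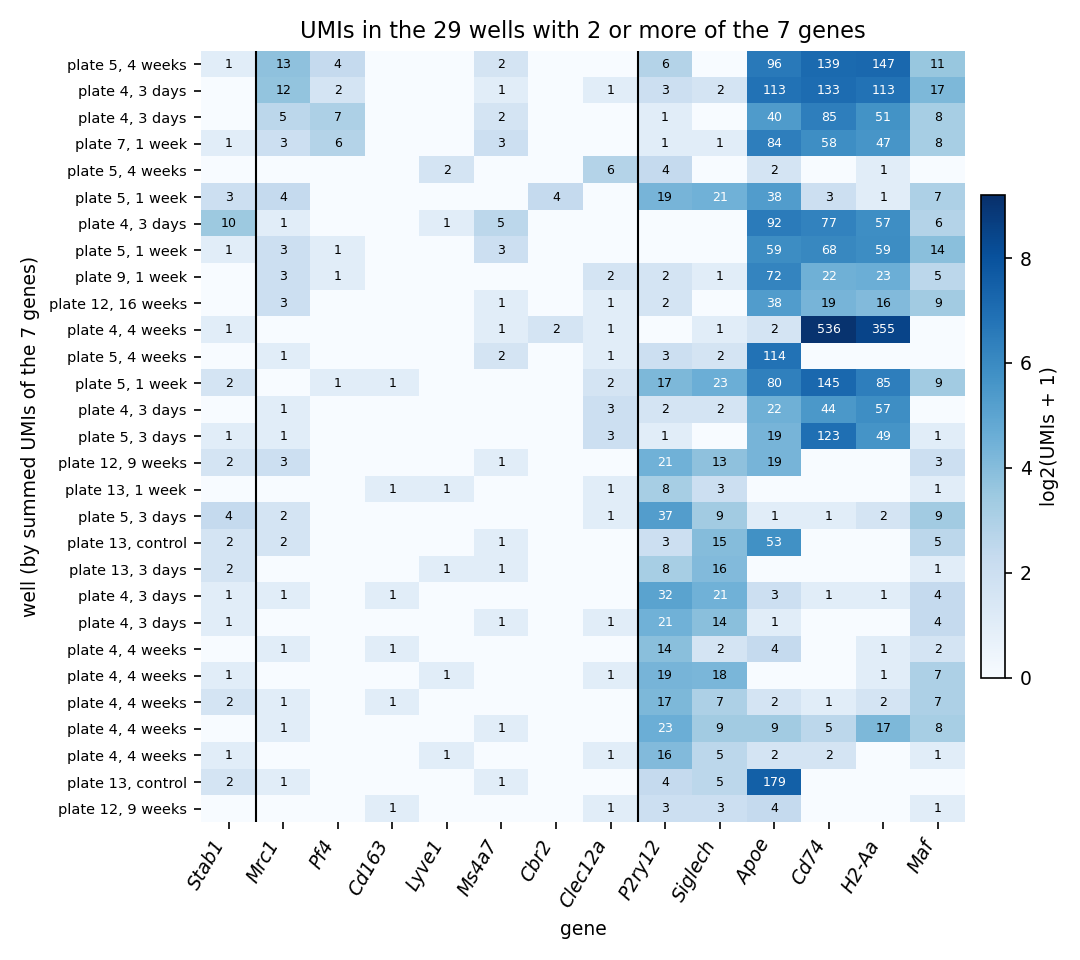
UMIs of Stab1, the 7 rarer genes and genes of microglia, MHC class II and other macrophages (columns) in each of the 29 wells with at least 2 of the 7 genes (rows, ordered by their summed UMIs), coloured by log2(UMIs + 1) with the UMIs written in. The wells at the top hold Mrc1 with Pf4 or Ms4a7 and many UMIs of MHC class II genes, and those at the bottom hold single UMIs beside P2ry12 and Siglech.

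The wells with the most UMIs of the 7 genes were few and can be named. The first, of a 4-week HFD replicate on plate 5 (barcode 122, 6301 UMIs), held 13 UMIs of Mrc1, 4 of Pf4 and 2 of Ms4a7, with 1 of Stab1, 6 of P2ry12, 96 of Apoe, the lipid carrier, and 139 of Cd74, the MHC class II chaperone. The next, of a 3-day HFD replicate on plate 4 (barcode 149, 5265 UMIs), held 12 of Mrc1, 2 of Pf4, 1 each of Ms4a7 and Clec12a, none of Stab1, 3 of P2ry12 and 133 of Cd74. A further well of that replicate (barcode 141, 2576 UMIs) held 5 of Mrc1, 7 of Pf4 and 2 of Ms4a7, again none of Stab1, and 1 of P2ry12. These 3 wells had Mrc1, Pf4 and Ms4a7 together, few P2ry12 UMIs and little or no Stab1. On plate 5, a well of a 1-week HFD replicate (barcode 124, 3619 UMIs) held 3 of Mrc1, 1 of Pf4, 3 of Ms4a7 and 68 of Cd74, with 1 of Stab1 and none of P2ry12. Outside plates 4 and 5, a well of a 1-week HFD replicate on plate 7 (barcode 93, 3152 UMIs) held 3 of Mrc1, 6 of Pf4, 3 of Ms4a7 and 58 of Cd74, with 1 of Stab1 and 1 of P2ry12. A well of plate 9 (barcode 14) held 3 of Mrc1, 1 of Pf4, 2 of Clec12a and 22 of Cd74 with no Ms4a7, and a well of plate 12 (barcode 140) held 3 of Mrc1, 1 of Ms4a7, 1 of Clec12a and 19 of Cd74 with no Pf4.

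The remaining 5 wells with at least 5 UMIs of the 7 genes did not hold Mrc1 with Pf4 or with many UMIs of Cd74, apart from the well of barcode 150. On plate 5, the well of barcode 178 held 6 UMIs of Clec12a and 2 of Lyve1 with no Mrc1 and 867 of S100a9. The well of barcode 148 on plate 5 held 4 of Mrc1, 4 of Cbr2 and 3 of Stab1 beside 19 of P2ry12 and 21 of Siglech, with 3 of Cd74. On plate 4, the well of barcode 150 held 10 of Stab1 and 5 of Ms4a7 with 1 of Mrc1, 77 of Cd74 and none of P2ry12. A control well on plate 9 (barcode 98) held 6 of Mrc1 as its only one of the 7 genes, with 4 of Stab1, 7 of P2ry12, 20 of Siglech, 211 of Apoe and none of Cd74. A well of a 16-week HFD replicate on plate 12 (barcode 132) likewise held 5 of Mrc1 alone, with 4 of Stab1, 6 of P2ry12, 3 of Siglech, none of Tmem119, 163 of Apoe and 1 of Cd74. Wells with at least 5 UMIs of Mrc1 thus included some with many and some with at most 1 UMI of Cd74.

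Summed over the 12 wells with at least 5 UMIs of the 7 genes, P2ry12 was at 1105 CPM, against 3851 CPM in the 1463 wells without any of them. Siglech, a lectin of microglia, was at 1040 against 2571 CPM, with 21 and 20 of its UMIs in the wells of barcodes 148 and 98. Apoe was at 21842 against 750 CPM, Cd74 at 13110 against 32.3 and H2-Aa at 11181 against 22.6. The homeostatic list summed to 31377 against 71722 CPM and the MHC class II list to 41669 against 118 CPM. Maf was at 1950 and 1356 CPM and Dab2 at 477 and 33.2 CPM. Of the 12 wells, 5 lay outside plates 4 and 5, where P2ry12 was at 1290 against 3796 CPM, Siglech at 1791 against 2554, Apoe at 40702 against 604 and Cd74 at 7166 against 17.4. Of the Apoe UMIs in these 5 wells, 211 and 163 lay in the wells of barcodes 98 and 132, which held at most 1 UMI of Cd74. The 12 wells were chosen by the 7 genes, and the sums merge unlike wells and describe them without a test. Wells with at least 5 UMIs of MHC class II genes numbered 41, of which 33 lay on plates 4 and 5. Among them Mrc1 was read in 41.5%, Ms4a7 in 26.8%, Clec12a in 26.8% and Pf4 in 19.5%, against 3.36%, 1.33%, 1.59% and 0.190% of the other 1576 wells. Lyve1 was read in 2.44% of them and in 1.59% of the other wells. Of the 8 such wells outside plates 4 and 5, 5 held Mrc1 and 2 held Pf4, against 40 and 3 of the other 1412.

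The level of Stab1, compared here without a test, was lower in these classes than in the other wells, apart from the wells with at least 5 UMIs of the 7 genes. It was 454 CPM in the wells with none of them, 371 with a single UMI of them, 265 with 2 to 4 UMIs and 520 with at least 5. The last value rests on 24 UMIs in 12 wells, of which 10 came from the well of barcode 150. Without plates 4 and 5 the 4 levels were 473, 365, 458 and 645 CPM, the last from 9 UMIs in 5 wells. In the 29 wells with at least 2 of the genes Stab1 was at 257 CPM, against 447 in the others, and without plates 4 and 5 at 310 against 468. In the 41 wells with MHC class II it was at 291, against 449, and in the 8 of them outside plates 4 and 5 at 345, against 467. The 29 wells were chosen by the 7 genes and the genes compared had to have at least 10 UMIs within them, so the ratios describe these wells and support nothing further. Among 3006 such genes, the 10 with the largest ratio to the other wells were S100a9, Cd74, Pf4, H2-Aa, Ccr2, H2-Eb1, H2-Ab1, Cd40, Clec4b1 and Plbd1. S100a9, a calcium-binding protein of neutrophils and monocytes, led with a ratio of 788, from 927 UMIs in 5 wells that were all on plates 4 and 5. Of these UMIs, 867 and 56 lay in the wells of barcode 178 on plates 5 and 4, so its rank rests on that barcode. Cd74 had a ratio of 219 from 18 wells, 15 of them on plates 4 and 5, H2-Aa 184 from 20 wells, 17 of them there, and Ccr2, the chemokine receptor of monocytes, 151 from 11 wells, 7 of them there. Pf4, at 187, is itself one of the 7 genes. MHC class II thus supplied 4 of the 10 genes.

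The shares of the rarer genes and the level of Stab1 both differed between plates. Mrc1 was read in 11.9% of wells on plate 4 and 13.9% on plate 5, and in 0.0% (0 of 121 wells on plate 11, which allows up to 2.48%) to 6.67% (plate 13) on the other 11. Pooled, Mrc1 was read in 12.7% of wells on plates 4 and 5 and 3.17% on the others, and thinned to 1500 UMIs in 5.91% and 1.96%. Clec12a was read in 10.7% and 1.06%, or 4.10% and 0.537% after thinning, and Ms4a7 in 7.61% and 1.20%, or 3.24% and 0.548%. Pf4 was read in 3.05% and 0.352% of wells, Cd163 in 4.06% and 0.423%, Cbr2 in 1.02% and 0.352% and Lyve1 in 2.54% and 1.48%, or 0.923% and 0.796% after thinning. All 7 shares were higher on plates 4 and 5, by little for Lyve1 at equal depth, and the 23 genes of other cells also had a higher median share there, 3.55% against 1.76%. Stab1 went the other way in level. It was read in 64.5% and 66.7% of wells but stood at 324 and 467 CPM, with thinned shares of 35.2% and 47.0%. On single plates Stab1 ran from 294 CPM on plate 5 and 342 on plate 4, through 372 on plate 13, to 564 on plate 3. Depth, MHC class II genes, the barcodes shared and the diets on these plates moved together, and their part in these shares was not tested.

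By length of HFD, the share of wells with Mrc1 was 3.46% in control (25 of 722), 1.24% at 1 day, 8.26% at 3 days, 7.56% at 1 week, 9.38% at 4 weeks, 2.44% at 9 weeks and 2.60% at 16 weeks. The 3 high values belong to the lengths sorted on plates 4 and 5. Without those plates Mrc1 was read in 3.50% of control wells, 2.50% at 3 days (1 of 40), 6.09% at 1 week (7 of 115) and 2.63% at 4 weeks (2 of 76). At least 2 of the 7 genes were read in 2 of 722 control wells (0.277%), 0 of 161 at 1 day, 9 of 121 at 3 days, 6 of 172 at 1 week, 9 of 128 at 4 weeks, 2 of 82 at 9 weeks and 1 of 231 at 16 weeks. The 0 of 161 wells allows a share of up to 1.86%, the limit that a count of 0 sets at 3 counts. Without plates 4 and 5 the counts were 2 of 715 control wells, 1 of 40 at 3 days, 3 of 115 at 1 week and 0 of 76 at 4 weeks (which allows up to 3.95%), the other lengths being the same. Plate 4 held 7 control wells of 1 replicate and plate 5 none, so on these plates the plate and the diet cannot be told apart, and no test was made for the 7 genes.

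The level of Stab1 was compared between diets over replicates. In the 19 control replicates it ran from 178 to 698 CPM with a median of 451 (mean 441 ± 136, SD). In the 6 replicates at 1 day it ran from 488 to 611 CPM with a median of 550 (551 ± 45.8, SD), all within the control range. In the 4 replicates at 3 days it was 362, 430, 465 and 475 CPM (433 ± 51.1, SD). Neither group left the control range. At 1 week the 5 replicates with at least 5 wells had 227, 230, 295, 328 and 400 CPM (296 ± 72.2, SD), all below the control median. At 4 weeks the 3 replicates had 224, 312 and 330 CPM (289 ± 57.0, SD), also below the control median. The sixth 1-week replicate, with 4 wells, was left out. The 2 replicates at 9 weeks had 346 and 389 CPM (367 ± 30.5, SD), again below it. The 5 replicates at 16 weeks had 456, 473, 484, 501 and 573 CPM (497 ± 45.3, SD), all above it. Control replicates covered the ranges of all 6 lengths.

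**Figure D3:**
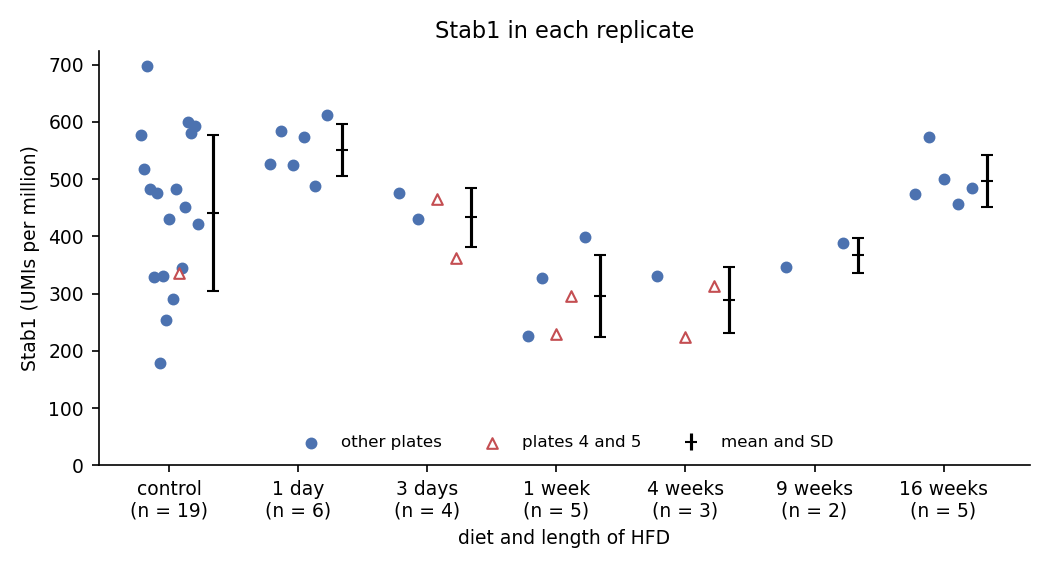
Stab1 level (y axis, CPM) of each replicate (points) with at least 5 wells, by diet and length of HFD, with the mean and SD; triangles mark replicates sorted on plates 4 and 5. The control replicates run from 178 to 698 CPM and the replicates at 1, 4 and 9 weeks lie below the control median of 451 CPM.

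Diets were not spread evenly over plates, so values were also read within plates. On plate 1 the control replicate was at 577 CPM and the 4-week replicate at 330. On plate 7 the control replicate was at 483 and the 1-week replicate at 328, and on plate 9 at 451 and 400. In each of these 3 plates the HFD replicate was the lower of the pair. On plate 13 the 4 control replicates had 329, 178, 254 and 290 CPM, the 2 at 3 days 475 and 430, the 2 at 16 weeks 573 and 484, and the 1-week replicate with enough wells 227. There the 3-day and 16-week replicates were above all 4 controls, whose well names do not all carry the same number of weeks. The 16-week replicate was below control on plate 2 (371 and 463 CPM) and plate 3 (556 and 571), and on plates 10 to 12 the 16-week replicates had 321 to 630 CPM and the controls 301 to 832. On plate 4 the control replicate was at 336 CPM, the 3-day replicates at 560 and 390, the 1-week replicates at 217 and 299 and the 4-week replicates at 182 and 369. On plates 6 and 8 the 1-day replicates had 488 to 611 and 524 to 585 CPM, against 422 to 592 and 331 to 476 CPM in controls.

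Counts were then summed per replicate and plate and each length was compared with control by edgeR's quasi-likelihood test with the plate as a block and p-values adjusted by Benjamini and Hochberg over all genes tested. Stab1 was the only one of the 8 genes that passed the filter on low counts, and the other 7 had too few UMIs to be tested. It was called at none of the 6 lengths, where 0.0% of 1710 genes tested were called at 1 day, 0.0% of 1719 at 3 days, 0.121% of 1652 at 1 week, 0.0% of 1862 at 4 weeks, 0.0661% of 1514 at 9 weeks and 0.0% of 1233 at 16 weeks. The comparisons share their control sums. At 1 day the log2 fold change of HFD over control was 0.24 ± 0.19 (SE), with an adjusted p of 0.935. At 3 days it was 0.64 ± 0.29 (SE, unadjusted p of 0.0304 and adjusted p of 0.716). At 1 week it was −0.41 ± 0.23 (SE, adjusted p of 0.955) and at 4 weeks −0.64 ± 0.32 (SE, adjusted p of 0.999). At 9 weeks it was −0.48 ± 0.18 (SE, unadjusted p of 0.00887 and adjusted p of 0.395), and at 16 weeks −0.02 ± 0.14 (SE, adjusted p of 0.959). The estimates were thus above 0 at 1 and 3 days and below 0 at the later lengths, and none was past the threshold. The signs at 3 days and 16 weeks changed under some alternative settings. In 1 model of all lengths the estimates were 0.24, 0.19 ± 0.20 (SE) at 3 days, −0.48, −0.48, −0.45 and −0.03, so that the 3-day value depended on which sums shared the fit. Fitted 1 length at a time without plates 4 and 5, the estimates were 0.26, 0.70, −0.41, −0.79, −0.49 and −0.03 in the same order. The 4-week value then rests on 1 replicate, which is assumed to vary like the other groups, and the 3-day value on plate 13 alone. Replicates sorted on several plates enter more than once, so the residual degrees of freedom are overstated.

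**Figure D4:**
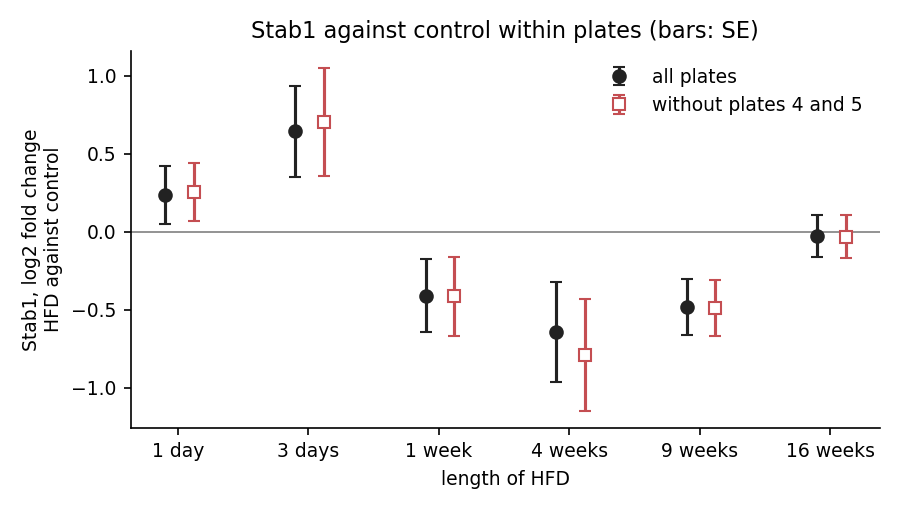
Log2 fold change of Stab1, HFD over control (y axis), at each length of HFD (x axis), from edgeR fits of each length with control and the plate as a block (bars, SE), over all plates (circles) and without plates 4 and 5 (squares, at 4 weeks from 1 replicate). The estimates run from 0.64 at 3 days to −0.64 at 4 weeks and the adjusted p is at least 0.395 at every length over all plates.

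In 1 model with all lengths, 0 of 2336 genes (0.0%) were called, and Stab1 had F = 4.15 with an unadjusted p of 0.000958 and an adjusted p of 0.540. A test that the 6 lengths differ from each other gave F = 4.63, an unadjusted p of 0.000792 and an adjusted p of 0.617. Stab1 was thus among the genes with small unadjusted p-values and did not pass adjustment over all genes. The number called over all genes moved with the settings, to 30 of 17280 without the filter, 5 of 4226 over linked plates and 13 of 3760 without plates 4 and 5, and Stab1 was called in none of these. Without plates 4 and 5 the values for Stab1 were F = 3.44 (adjusted p of 0.356) and F = 3.71 (adjusted p of 0.463). Without the plate block the first test gave F = 6.18 and an adjusted p of 0.00309, so that Stab1 was then 1 of 59 genes called of 2336, in a fit where plate and length cannot be told apart.

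The share of wells with Stab1, thinned to 1500 UMIs, was compared within plates that held both diets, by a two-sided exact permutation test that reassigned diets among replicates within each plate set. It was 56.3% at 1 day and 48.2% in control, a difference of 8.06 percentage points (exact permutation p of 0.070, 0.167 after Benjamini-Hochberg adjustment over the 6 lengths). At 3 days it was 44.9% against 34.9%, a difference of 9.98 points (exact permutation p of 0.044, adjusted 0.167, over 45 assignments). The difference was positive on both plates compared at each of these lengths. At 1 week it was 32.7% against 38.6%, a difference of −5.96 points, lower on 4 of 4 plates (exact permutation p of 0.083, adjusted 0.167). At 4 weeks the difference was −12.5 points on 2 plates, where the smallest p the design allows is 0.167 (exact permutation p of 0.5). At 9 weeks it was −8.39 points on 3 plates, with a smallest possible p of 0.067 (exact permutation p of 0.267), and at 16 weeks −1.40 points (exact permutation p of 0.711). The signs were those of the fold changes at all 6 lengths, from the same wells, and no difference held after adjustment. Without plates 4 and 5 the differences were 12.9 points at 3 days (exact permutation p of 0.133), −7.65 at 1 week (exact permutation p of 0.05, the smallest possible) and −21.1 at 4 weeks, where 1 replicate of each diet allows no test, and the smallest adjusted value was 0.210.

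Related genes were examined in the same fits. Of the scavenger and endocytic receptors 5 were tested at each length and 0 were called. Of the other border macrophage genes 2 to 5 were tested and 0 were called, and of the 15 homeostatic microglial genes, all tested, 0 were called. Over all genes DESeq2 called 0 at all 6 lengths, with 32 to 90 genes at an unadjusted p under 0.05, against 62 to 116 by edgeR.

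The genes whose level was most like that of Stab1 were sought over 68 sums per replicate and plate, on log2 CPM centred on each plate's mean, among 2335 genes. The highest Pearson correlations were those of Prpf39, a splicing factor (0.48), Gatm, an enzyme of creatine synthesis (0.46), Pknox1, a homeobox factor (0.42), Ctsf, the lysosomal protease cathepsin F (0.42), and Sipa1, a GTPase activator of Rap (0.41). The lowest were those of Cadm1, an adhesion molecule (−0.39), Mllt10 (−0.39) and Gtf2h2, a subunit of the transcription factor TFIIH (−0.38). Over all genes the correlations ran from −0.23 at the 5th to 0.23 at the 95th percentile, so those named lie at the ends of a broad spread. Over the 55 sums outside plates 4 and 5 the values were 0.50, 0.49, 0.35, 0.36 and 0.39 for the highest and −0.36, −0.37 and −0.50 for the lowest, in the same order. The sums share plates and replicates and are small, and the values are given as a description.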

How the data were processed

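The study sorted single CD45lo, CD11b+ cells into 13 plates of 192 wells and sequenced them by CEL-Seq2. Per the methods and the labels, the authors trimmed barcodes with Cutadapt, aligned reads to mm10 with STAR and assigned them to genes by featureCounts, all within snakePipes, and they analysed cells with RaceID3 and a correction by plate. The deposited plate tables hold, by gene and by well, an estimated count of transcripts without normalization. Every value was converted back to UMIs with the 4096 tags that 6 bases allow, and 100% of values above 0 were whole within 0.001. A deposited table of wells gave plate, diet, length of HFD and replicate identifier, and the entries for 1 week and 7 days were merged. The filtered count table gave the list of 17280 genes, all of them in each plate table, and 447 further genes common to all plates did not enter totals or tests. No other columns of per-sample values were left unused (0).

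Wells with at least 1500 transcripts over those genes were kept (1506 to 19711 UMIs, median 2830). CPM is UMIs per 1000000 UMIs of the filtered genes. Estimated counts were summed per replicate and plate with at least 5 wells, rounded, and tested in R 4.3.3 with edgeR 4.0.16, using TMM, filterByExpr, the plate as a block and the quasi-likelihood test. P-values were adjusted by Benjamini and Hochberg over all genes tested, and genes under 0.05 were called. DESeq2 1.42.0 was run as an alternative. Permutation tests ran in python 3.11.15 with numpy 2.4.6, pandas 2.3.3 and scipy 1.17.1. Doublets were not called, as each well received a single sorted cell. Scripts were tested on simulated data. The genes, lists and tests were chosen with earlier results of these data known. Genes named are the 8 members, the 5 highest and 3 lowest in correlation with Stab1, the 10 with the largest ratio in wells with at least 2 of the 7 rarer genes and at least 10 UMIs in at least 3 of them, and list genes read in at least 1% of wells. Other genes and single wells were chosen after their values were seen. Alternatives were the tool, the scaling, the filters on genes and wells, the plate block, sums over linked plates, P2ry12-positive wells alone, leaving out each replicate and, added after seeing the data, leaving out plates 4 and 5. The values of 1 gene of the homeostatic list are not reported here.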

Additional observations from a re-analysis of the deposited data

Results flagged for a closer look

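Wells under the threshold of 1500 transcripts entered no comparison. Of the 879 such wells, 2 held at least 2 of the 7 rarer genes, above the highest value of 1 UMI in 358 control wells under the threshold. A well of a 4-week HFD replicate on plate 5 (barcode 33, 1474 UMIs) held 17 UMIs of the 7 genes: 8 of Mrc1, 6 of Cd163 and 1 each of Pf4, Ms4a7 and Cbr2. It also held 4 UMIs of Stab1, none of P2ry12 and 9 of Cd74. Cd163 had at most 1 UMI in every well above the threshold, so this well held the highest value of Cd163. The well of the same barcode on plate 4 held 1 UMI of Mrc1 and 1 of Cd163. A well of a 1-week HFD replicate on plate 5 (barcode 188, 349 UMIs) held 3 UMIs of the 7 genes, 2 of Mrc1 and 1 of Ms4a7. Both wells lie on plate 5, whose barcodes shared rare transcripts with plate 4, and the part of this in their values was not tested. In 44 groups of 4 to 10 samples no sample was flagged as apart from the rest by Dixon's criterion. The 44 include groups of the rarer genes with fewer than 2 samples above 0, which were not tested. The chance rate of about 1 in 20 therefore holds only for the groups that were tested.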

How the results depend on the processing

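No paired analysis was possible because an identifier belongs to 1 diet on its plates. Some identifiers recur with another diet in another set of plates, where they were taken as other replicates. The Stab1 log2 fold change kept its side of the threshold in all alternatives run. It changed sign at 3 days without the plate block (−0.11), and at 16 weeks without the block (0.0017), over linked plates (0.015) and with at least 2000 transcripts (0.047). Leaving out each replicate in turn gave 0.16 to 0.32 at 1 day, 0.55 to 0.75 at 3 days, −0.51 to −0.25 at 1 week, −0.82 to −0.28 at 4 weeks (the last without the replicate of plate 1), −0.64 to −0.33 at 9 weeks and −0.12 to 0.059 at 16 weeks, with a sign above 0 without L3 (0.035) or L4 (0.047) of plates 2 and 3 or M1 (0.059), M4 (0.0080) or M6 (0.026) of plates 10 to 12. The differences in share ran from 5.92 to 10.5, 8.02 to 12.9, −7.72 to −2.21, −21.1 to −3.83, −11.4 to −6.04 and −2.89 to 1.15 points, the last without L3 or L4. Called genes ranged over 0 to 0, 0 to 1, 0 to 5, 0 to 3, 0 to 3 and 0 to 2. The highest counts came without M26 of plate 4 (3 days), M22 of plates 4 and 5 (1 week), the plate 1 replicate L2 (4 weeks), M1 or M7 of plates 10 to 12 (9 weeks) and L3 or L4 (16 weeks); at 1 week the omission of any replicate of plates 7, 9 and 13 lowered the count to 0 or 1, and at 9 weeks that of M2 or M8 lowered it to 0.

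The number of called genes depended on the settings. Without the plate block it was 2, 14, 6, 8 and 0 from 1 day to 9 weeks, and without the filter 6, 7, 9, 3 and 4 from 3 days to 16 weeks. Over linked plates it was 4, 5 and 6 at 3 days, 1 week and 4 weeks, and without plates 4 and 5 it was 1, 5 and 2, the last from 1 replicate at 4 weeks that is assumed to vary like the other groups. At least 1000 transcripts gave 1 at 1 week and 2 at 4 weeks, at least 2000 gave 0 at 1 and 9 weeks, P2ry12-positive wells alone gave 0 at 1 week, and DESeq2 gave 0 at 1 and 9 weeks. Over all lengths F rose to 6.18 past the threshold without the block, and the cause was not tested. Requiring 2 UMIs gave Stab1 36.1% of wells, and thinning gave 45.7% of P2ry12-positive wells, both from fewer UMIs by construction. Depth limits the 7 rarer genes, which had too few UMIs to be tested.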
